A study of Homo sapiens with 4 samples.

Results

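The genes described here are the semaphorins, their plexin and neuropilin receptors, the ephrins and the Eph receptor tyrosine kinases. Members were taken by name, as every symbol of semaphorin classes 3 to 7, the plexins, the A and B ephrins, the A and B Eph receptors, NRP1 and NRP2, without 4 antisense transcripts. This gave 53 of 25317 gene symbols, namely 20 semaphorins, 9 plexins, 2 neuropilins, 8 ephrins and 14 Eph receptors.

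RNA was sequenced from 4 libraries of MCF10A, a human breast epithelial line that is not tumour-derived, grown with serum, epidermal growth factor, cholera toxin and insulin. The cells had received a lentivirus that carried Zeb1, Snail, Ovol2 or no factor (the empty vector), each from a vector that also expresses the green fluorescent protein ZsGreen. Fluorescent cells were sorted after 6 days, so all groups share infection and sorting. Zeb1 and Snail are repressors that drive the epithelial-to-mesenchymal transition, and Ovol2 drives the reverse transition. Each group was 1 library of 1 cell line, so no spread between cultures was measured. The differences below describe these libraries and carry no p-value or standard error.

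Semaphorins are secreted or membrane-bound cues that were first known from the repulsion of growing axons. They bind plexins, large receptors whose inner domain acts on small GTPases and loosens the hold of a cell on its matrix. Secreted class 3 semaphorins mostly need a neuropilin as the binding part of the receptor, and neuropilins also bind vascular endothelial growth factors. Ephrins stay on the cell that makes them, the A type through a lipid anchor and the B type as transmembrane proteins, so Eph signalling takes place between touching cells and can run both ways. In epithelia, Eph receptors and ephrins take part in keeping cells together in sheets and in sorting cells at tissue borders.

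Values are FPKM, fragments scaled to transcript length and library size. A gene was kept in a comparison if it reached 1 FPKM in the factor or the empty vector library. It was called higher or lower if the log2 ratio of FPKM + 1 was 1 or more in size, a 2-fold difference on that scale. The added 1 FPKM understates differences of genes with low levels. Each comparison uses the same empty vector library, so the 3 sets of ratios are not independent of each other.

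The delivered factors were highest in their own libraries, with ZEB1 at 17.3 FPKM in the Zeb1 library, SNAI1 at 99.7 FPKM in the Snail library and OVOL2 at 78.3 FPKM in the Ovol2 library, against 0.260, 0.152 and 6.32 FPKM in the empty vector library. All 9 basal mammary markers looked up, keratins 5, 14 and 17 among them, were at 4.06 FPKM or more in every library. Their sum was 2672 FPKM with Zeb1, 7943 with Snail and 5691 with Ovol2, against 9868 with the empty vector, and all 9 were below the empty vector level with Zeb1. KRT17 alone made up 4624 FPKM of the sum with Ovol2. The median of the 9 was 70.0 FPKM with Zeb1, 204 with Snail and 65.3 with Ovol2, against 248 with the empty vector. With Ovol2 only SFN was above the empty vector level, at 608 FPKM against 248. Endothelial cells also use many of these genes, and 7 or more of their 8 markers stayed below 1 FPKM in each library, with VWF at 1.29 FPKM in the Ovol2 library as the exception. The 8 summed to 0.557 FPKM with Zeb1, 0.268 with Snail and 1.66 with Ovol2, against 0.240 with the empty vector. PTPRC, which marks leukocytes, was at most 0.0177 FPKM. The 7 fibroblast markers summed to 760 FPKM with Zeb1, 138 with Snail and 7.87 with Ovol2, against 15.5 in the empty vector library. The matrix genes DCN, LUM and COL3A1 were at 604, 71.5 and 59.5 FPKM with Zeb1, against 11.1, 0.763 and 0.0699 with the empty vector. The surface markers PDGFRB, PDGFRA and THY1 were at 0.358, 0.0831 and 0.0640 FPKM with Zeb1, against 0.0240, 0.0157 and 0.0374. The 7 leukocyte markers summed to 22.2 FPKM with Zeb1, 17.0 of it CD14, 4.67 with Snail and 8.53 with Ovol2, against 4.33 with the empty vector. The 7 markers of neurons and glia summed to 21.8, 12.97 and 2.96 FPKM, against 5.66, mostly MAP2 with Zeb1 and Snail. In bulk RNA, fewer cells that express a gene and less RNA per cell cannot be told apart. A rough proxy of relative depth, read from the commonest value above 0, was 1.18 with Zeb1, 1.09 with Snail and 0.829 with Ovol2. The empty vector library was set to 1. That value was shared by only 11 to 30 genes in a library. Genes listed at 0 numbered 5228 with Zeb1, 3340 with Snail and 3478 with Ovol2, against 6482 with the empty vector, an order that does not follow the proxy. Depth itself was not measured.

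Of the 53 members, 32 reached 1 FPKM in at least 1 library and 22 in all 4. The number at 1 FPKM or more was 29 with Zeb1, 30 with Snail and 24 with Ovol2, against 30 in the empty vector library. Among all genes it was 11310, 11258 and 10118, against 11359, so it was lowest with Ovol2 there too. The 21 that stayed below 1 FPKM everywhere were EFNA2, EFNB3, EPHA5, EPHA6, EPHA7, EPHA8, EPHA10, EPHB1, PLXNA4, PLXNC1, SEMA3A, SEMA3D, SEMA3E, SEMA3G, SEMA4D, SEMA4G, SEMA5A, SEMA5B, SEMA6A, SEMA6B and SEMA6C. The highest of them was SEMA6A, a transmembrane semaphorin, at 0.248 FPKM with Zeb1, 0.508 with Snail and 0.0493 with Ovol2, against 0.985 in the empty vector library. SEMA4D, the usual ligand of the plexin PLXNB1, was at 0.352 to 0.786 FPKM. SEMA3A, the best known axon repellent of its class, was at 0.0840 to 0.419 FPKM.

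A few genes held most of the signal. SEMA3C and SEMA3F together made up 92.3% of the summed FPKM of all semaphorins with Zeb1, 80.8% with Snail and 74.1% with Ovol2, against 77.0% in the empty vector library. PLXNB2 alone made up 46.4% to 57.6% of the plexins. EFNA1 was the highest ephrin in every library. EPHB4 and EPHA2 were the highest Eph receptors except in the Ovol2 library, where EPHA2 and EPHA1 led. The whole group summed to 530 FPKM with Zeb1, 423 with Snail and 247 with Ovol2, against 454 in the empty vector library. SEMA3C accounted for 265 of the 530 FPKM in the Zeb1 library.

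**Figure D1:**
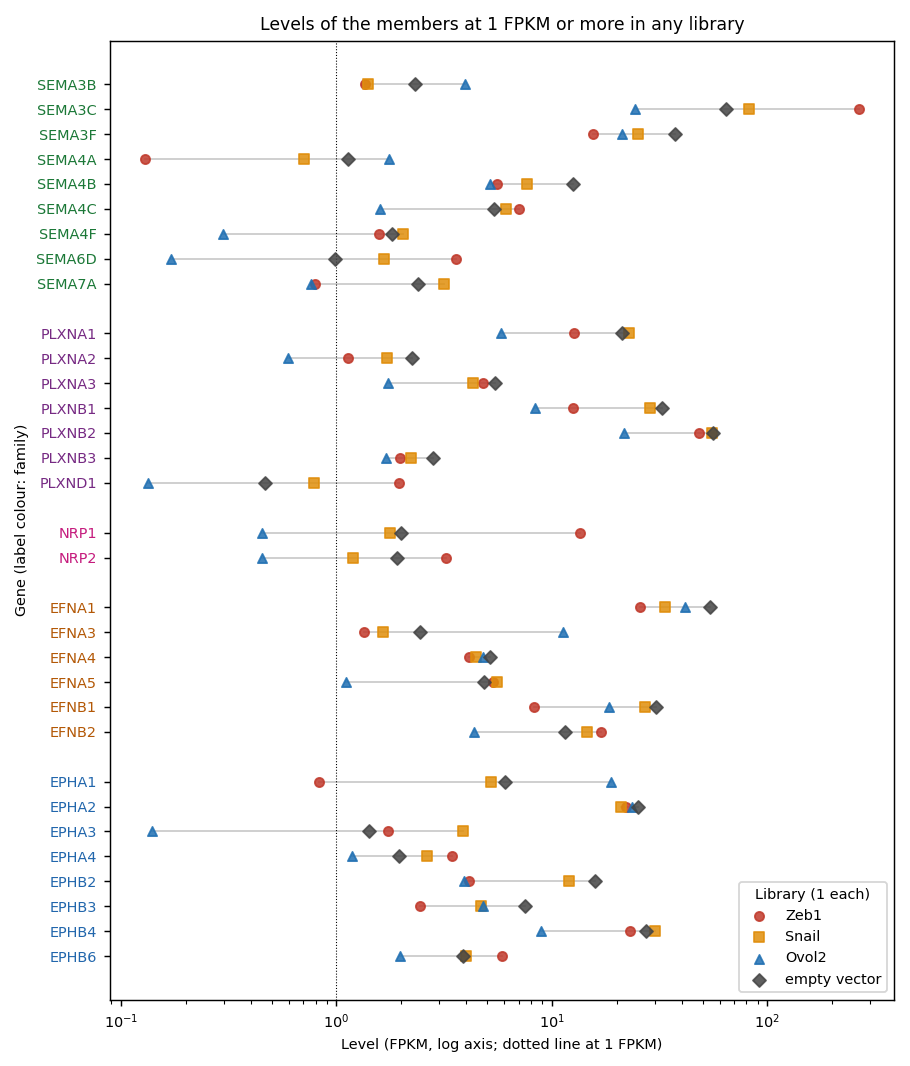
Level of each of the 32 members that reached 1 FPKM, on a log axis in FPKM, with 1 point per library (red circle Zeb1, orange square Snail, blue triangle Ovol2, grey diamond empty vector) and genes grouped by family. SEMA3C at 265 FPKM and NRP1 at 13.6 FPKM stand to the right in the Zeb1 library, EPHA1 at 18.8 and EFNA3 at 11.2 FPKM stand to the right in the Ovol2 library, and the Ovol2 point is the lowest of the 4 for 22 genes. The share of all genes that were lowest with Ovol2 was not computed, but 8497 of all 11812 genes kept were below the empty vector library with Ovol2.

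Zeb1 and Snail are known to bind E-boxes of the form CAGGTG, which reads CACCTG on the other strand. The letters just upstream of 4 members that were lower in the Zeb1 library are shown for this reason. They are the 250 bases before an annotated start, from RefSeq on GRCh38.p14, a later build than the hg19 named for the deposited files. Each is read 5′ to 3′ on the strand of its gene, and capitals mark CAGGTG or CACCTG.

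EPHA1, chr7:143408857-143409106, minus strand: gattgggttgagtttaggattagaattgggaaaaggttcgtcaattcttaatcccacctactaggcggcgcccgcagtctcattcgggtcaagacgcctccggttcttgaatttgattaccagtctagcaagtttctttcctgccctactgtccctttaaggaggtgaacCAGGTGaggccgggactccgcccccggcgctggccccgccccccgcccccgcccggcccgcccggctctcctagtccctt
EPHB2, chr1:22710588-22710837, plus strand: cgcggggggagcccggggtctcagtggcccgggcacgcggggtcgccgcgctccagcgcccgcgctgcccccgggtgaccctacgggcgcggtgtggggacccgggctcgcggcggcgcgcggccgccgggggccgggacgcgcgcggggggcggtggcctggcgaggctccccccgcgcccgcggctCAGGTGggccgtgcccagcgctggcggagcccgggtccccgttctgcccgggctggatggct
SEMA3F, chr3:50154808-50155057, plus strand: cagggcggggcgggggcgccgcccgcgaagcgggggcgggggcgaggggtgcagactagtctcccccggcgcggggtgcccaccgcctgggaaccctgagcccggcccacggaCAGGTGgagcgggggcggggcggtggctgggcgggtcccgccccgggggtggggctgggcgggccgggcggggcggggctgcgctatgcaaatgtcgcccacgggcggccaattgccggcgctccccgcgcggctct
EFNB1, chrX:68828771-68829020, plus strand: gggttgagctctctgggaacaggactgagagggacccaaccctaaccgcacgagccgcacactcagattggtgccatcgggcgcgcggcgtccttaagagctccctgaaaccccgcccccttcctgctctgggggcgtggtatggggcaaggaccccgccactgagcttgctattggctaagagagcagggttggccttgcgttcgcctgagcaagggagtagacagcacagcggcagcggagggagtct

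EPHA1, EPHB2 and SEMA3F hold 1 match each, whose first base lies at -80, -62 and -137 from the start, and EFNB1 holds none. SEMA3F has 3 annotated starts, and the windows of the other 2 hold no match. EPHB2 has a further start 1 base on, whose window holds the same match. Windows were found for 47 of the 53 members, and EFNB3, EPHA10, NRP1, SEMA3A, SEMA6A and SEMA6B had none. Of the 8 members lower in the Zeb1 library, 3 had a match in at least 1 window (37.5%), against 11 of all 47 members (23.4%) and 5635 of 27305 genes (20.6%). Of the 3 members that were higher and had a window, PLXND1, SEMA3C and SEMA6D, 0 had one. In this count a gene with more windows has more chances of a match. By window, 16.2% of the 74 member windows held a match, against 17.5% of all 35116 windows. The 8 lower members had a match in 4 of 14 windows, with that of EPHB2 counted in each of its windows. CCGTTA, an Ovol recognition sequence known from mouse, was searched on both strands and stood in 0 of the 74 member windows, against 2.45% of all windows. These are matches of letters in short windows and show no binding.

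In the Zeb1 library, 4 members were higher and 8 lower of 32 kept (12.5% and 25%). Among all 11922 genes kept, 4.52% were higher and 8.49% lower. The higher ones were SEMA3C, SEMA6D, NRP1 and PLXND1, a secreted and a membrane-bound semaphorin, a neuropilin and a plexin. SEMA6D and PLXND1 were below 1 FPKM with the empty vector (0.989 and 0.468) and were kept only through the Zeb1 library. The lower ones were EPHA1, EPHB2, EPHB3, EFNB1, EFNA1, PLXNB1, SEMA3F and SEMA4B. EPHA1, at 0.833 FPKM with Zeb1, was kept only through the empty vector library. No ephrin or Eph receptor was called higher. The median log2 ratio of the kept members was -0.25, against -0.09 for all genes, and 0.03 against 0.18 when RMRP and RPPH1 were left out of the totals. These short RNAs took up 22.1% of all FPKM with Zeb1, 18.7% with Snail and 40.6% with Ovol2, against 24.6% with the empty vector.

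SEMA3C, a secreted semaphorin that signals through neuropilins with A and D plexins, was at 265 FPKM with Zeb1, 82.5 with Snail and 24.3 with Ovol2, against 64.3 in the empty vector library. Its level was thus 4.13 times that of the empty vector library with Zeb1 (log2 ratio 2.03). SEMA3F, a secreted semaphorin that prefers NRP2, was at 15.6, 25.2 and 21.2 FPKM in the Zeb1, Snail and Ovol2 libraries, against 37.1 in the empty vector library (-1.2005 with Zeb1). The 2 main secreted semaphorins thus went opposite ways in the Zeb1 library. A ratio of 2 genes within a library does not depend on how libraries are scaled to each other. It is not free of the trend with transcript length described below where the 2 genes differ in length. The longest transcripts of SEMA3C and SEMA3F are 5174 and 3802 bases. SEMA3C stood at 17.0 times SEMA3F with Zeb1, 3.28 times with Snail and 1.15 times with Ovol2, against 1.73 times in the empty vector library. The pairs compared in this way were chosen after their values had been seen.

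SEMA3B lies near SEMA3F on chromosome 3 and was at 1.36, 1.41 and 3.97 FPKM in the Zeb1, Snail and Ovol2 libraries, against 2.32 in the empty vector library. Its antisense neighbour SEMA3B-AS1 was at 0.961, 0.132 and 1.09 FPKM, against 0.421. How strand was treated in counting is not stated, so reads where the pair overlaps may be shared. SEMA6D, a transmembrane semaphorin that acts through A plexins, was at 3.57, 1.67 and 0.171 FPKM, against 0.989 (1.2004 with Zeb1). SEMA4B, SEMA4A, SEMA4C and SEMA4F are transmembrane proteins of class 4. SEMA4B was at 5.55, 7.70 and 5.17 FPKM in the Zeb1, Snail and Ovol2 libraries, against 12.5 (-1.04 with Zeb1), so it was below the empty vector level in every factor library. SEMA4A was at 0.130, 0.705 and 1.75 FPKM, against 1.14. SEMA4A missed the 2-fold rule with Zeb1 (-0.92), although its plain ratio was 8.76 in favour of the empty vector library, because its level was close to the added 1 FPKM. SEMA4C, a ligand of PLXNB2, was at 7.07, 6.09 and 1.59 FPKM, against 5.38. SEMA4F was at 1.58, 2.03 and 0.299 FPKM, against 1.81. Neither of the last 2 was called with Zeb1 or Snail. SEMA7A, which is lipid-anchored and binds an integrin as well as PLXNC1, was at 0.796, 3.16 and 0.765 FPKM, against 2.39, and came close to the rule with Zeb1 (-0.91) and Ovol2 (-0.94).

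The neuropilins parted in the Zeb1 library. NRP1 was at 13.6 FPKM with Zeb1, 1.78 with Snail and 0.451 with Ovol2, against 1.997 in the empty vector library, a log2 ratio of 2.28 with Zeb1 that was the largest of any member. NRP2 was at 3.22, 1.19 and 0.450 FPKM, against 1.91 (0.53 with Zeb1, not called). NRP1 was therefore 4.21 times NRP2 in the Zeb1 library and 1.49 times in the Snail library, and the pair was nearly level in the Ovol2 (1.00) and empty vector (1.04) libraries.

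Of the plexins, PLXND1, a receptor best known from blood vessels that binds SEMA3E and SEMA3C, was at 1.95, 0.791 and 0.133 FPKM in the Zeb1, Snail and Ovol2 libraries, against 0.468 (1.01 with Zeb1, close to the rule). Of the 8 endothelial markers 0 reached 1 FPKM with Zeb1 or with the empty vector, the highest being ESAM at 0.442 FPKM with Zeb1, against 0.114, and their part in the PLXND1 ratio was not tested. PLXNB1, which pairs with the receptor kinases MET and ERBB2, was at 12.6, 28.7 and 8.39 FPKM, against 32.5 (-1.31 with Zeb1). PLXNB2, the most abundant plexin, was at 48.0, 55.2 and 21.6 FPKM, against 56.1, and was not called with Zeb1 (-0.22). PLXNB3, a receptor of SEMA5A, was at 1.98, 2.22 and 1.70 FPKM, against 2.81. The 3 A plexins kept, a group that forms receptors with neuropilins, were below the empty vector library with Zeb1 without reaching 2-fold. PLXNA1 was at 12.7, 22.7 and 5.81 FPKM in the Zeb1, Snail and Ovol2 libraries, against 21.1 in the empty vector library. PLXNA2 was at 1.14, 1.72 and 0.595 FPKM, against 2.24. PLXNA3 was at 4.80, 4.30 and 1.73 FPKM, against 5.43.

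Among the ephrins, the B type split in the Zeb1 library. EFNB1 was at 8.24 FPKM with Zeb1, 27.1 with Snail and 18.3 with Ovol2, against 30.4 in the empty vector library (-1.77 with Zeb1). EFNB2, the ligand of EPHB4 and a marker of arteries, was at 16.9, 14.6 and 4.36 FPKM, against 11.5 (0.52 with Zeb1). EFNB2 was thus 2.06 times EFNB1 in the Zeb1 library. EFNB1 was the higher of the pair in the Snail (1.86 times EFNB2), the Ovol2 (4.21 times) and the empty vector (2.64 times) libraries. The longest transcripts of EFNB2 and EFNB1 are 4995 and 3314 bases. With the length trend removed their log2 ratios with Ovol2 were -0.38 and -0.20. EFNA1, the main ligand of EPHA2, was at 25.7, 33.5 and 41.4 FPKM, against 54.3 (-1.05 with Zeb1, close to the rule). EFNA4 was at 4.13, 4.45 and 4.80 FPKM, against 5.19, the narrowest range of the ephrins. EFNA5 was at 5.33, 5.54 and 1.11 FPKM, against 4.83, and EFNA3 at 1.35, 1.65 and 11.2 FPKM, against 2.45. Neither was called with Zeb1.

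The Eph receptors held the lowest ratio of the group. EPHA1, an A-type receptor found mainly in epithelia, was at 0.833 FPKM with Zeb1, 5.23 with Snail and 18.8 with Ovol2, against 6.04 in the empty vector library, a log2 ratio of -1.94 with Zeb1. EPHB2 was at 4.14, 11.95 and 3.91 FPKM, against 15.9 (-1.71 with Zeb1). EPHB3 was at 2.45, 4.67 and 4.80 FPKM, against 7.47 (-1.30 with Zeb1). EPHB2 and EPHB3 are the B-type receptors that place cells along intestinal crypts, and both were below the empty vector level in every factor library, past 2-fold in the Zeb1 library and, for EPHB2, in the Ovol2 library. With the length trend removed EPHB2 came to -0.69 with Ovol2, short of 2-fold, and EPHB3 to 0.17. EPHA2, the receptor most studied in breast epithelium, was at 22.1, 20.8 and 23.5 FPKM, against 25.1, and was not called in any comparison. EPHB4, the receptor of EFNB2, was at 23.1, 30.1 and 8.93 FPKM, against 27.3. EPHA4, which binds A and B ephrins alike, was at 3.45, 2.63 and 1.18 FPKM, against 1.95. EPHB6, whose kinase domain is inactive, was at 5.86, 4.00 and 1.98 FPKM, against 3.88. None of the last 3 was called with Zeb1. EPHA2 was 26.5 times EPHA1 with Zeb1, 3.98 times with Snail and 1.25 times with Ovol2, against 4.16 times in the empty vector library.

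Under all 9 alternative settings EPHA1, EFNB1, EPHB2, EPHB3 and PLXNB1 passed the rule on the lower side and NRP1 and SEMA3C on the higher side in the Zeb1 comparison. SEMA6D passed it in the 8 settings that kept it, since a minimum of 5 FPKM left it out. A changed minimum leaves the ratio of a kept gene as it was, and a smaller added value alone only enlarges it. Such settings could not undo a call of a kept gene. EFNA1 and SEMA4B missed the rule when ratios were centred on well expressed genes, which left 4 higher and 6 lower, against 5.97% and 6.45% of all genes. The ratios of all genes also followed transcript length, and removal of that trend left 3 higher and 6 lower, against 5.76% and 5.78%. With that trend removed and 0.1 in place of 1 FPKM added, 4 were higher and 11 lower, against 8.82% and 9.28%. Without RMRP and RPPH1 in the totals, SEMA3F missed it as well, and 4 were higher and 5 lower, against 8.44% and 5.07% of all genes. The fibroblast markers, of which 4 of 7 reached 1 FPKM with Zeb1 and 2 of 7 with the empty vector, summed to 760 and 15.5 FPKM. The basal epithelial markers summed to 2672 FPKM with Zeb1 and 9868 with the empty vector. The part of either list in these results was not tested.

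**Figure D2:**
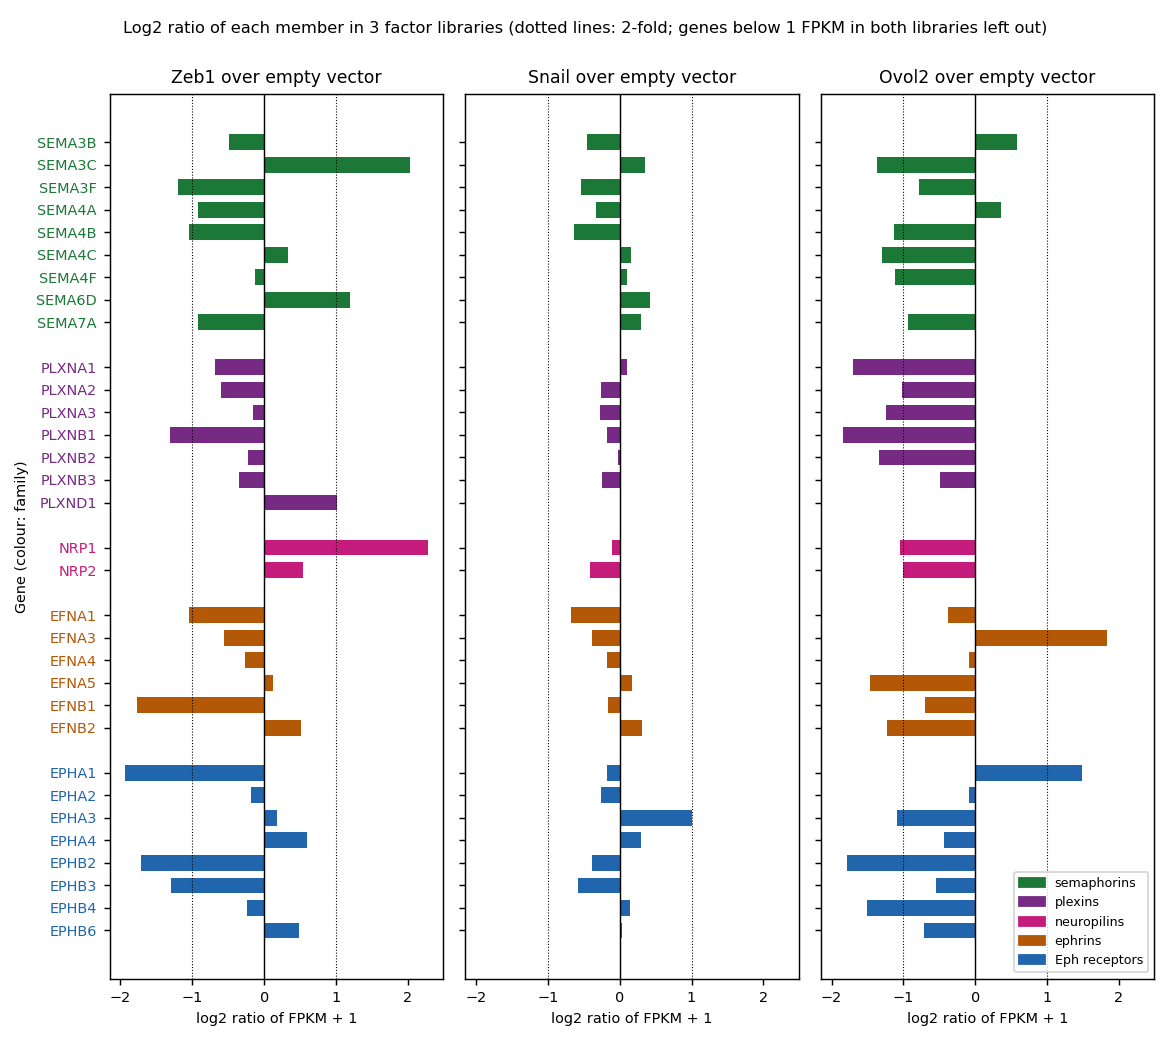
Log2 ratio of FPKM + 1 of each factor library over the empty vector library (horizontal axis), with 1 bar per kept member, coloured by family, and dotted lines at 2-fold. NRP1 (2.28) and EPHA1 (-1.94) mark the ends in the Zeb1 panel, EPHA3 (1.01) is the sole bar to reach a line in the Snail panel, and in the Ovol2 panel EFNA3 (1.83) and EPHA1 (1.49) stand against 16 bars past the line on the lower side, none of which stayed past it once the trend with transcript length was removed.

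In the Snail library few members passed the rule. Of 31 kept members, 1 was higher and 0 lower, against 1% and 1.5% of all 11644 genes kept. The member called was EPHA3, an A-type receptor best known from the nervous system and some tumours, at 3.86 FPKM in the Snail library, 1.74 in the Zeb1 and 0.139 in the Ovol2 library, against 1.42 in the empty vector library (1.01 with Snail). It lay at the edge of the rule and missed it when ratios were centred (0.87), which left 0 higher and 0 lower against 0.67% and 2.16% of all genes. It also missed the rule when the length trend was removed (0.82), with 0 and 0 against 0.779% and 1.58%. With 0.1 FPKM added after that removal, 1 was higher and 0 lower, against 1.5% and 3.47%. The other log2 ratios with Snail ran from -0.68 for EFNA1 to 0.42 for SEMA6D. The next lowest was SEMA4B (-0.63), followed by EPHB3 (-0.58) and SEMA3F (-0.54). NRP1, with the largest ratio in the Zeb1 library, was at -0.11 with Snail, and EPHA1 at -0.18. Whether Zeb1 and Snail differ in these genes could not be tested with 1 library each.

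In the Ovol2 library, 2 members were higher and 16 lower of 30 kept (6.67% and 53.3%). Among all 11812 genes kept, 6.82% were higher and 25.1% lower. EFNA3 and EPHA1 were the higher pair. The lower ones were 4 semaphorins (SEMA3C, SEMA4B, SEMA4C and SEMA4F), 5 plexins (PLXNA1, PLXNA2, PLXNA3, PLXNB1 and PLXNB2), both neuropilins, 2 ephrins (EFNA5 and EFNB2) and 3 Eph receptors (EPHA3, EPHB2 and EPHB4). The median log2 ratio of the kept members was -1.02, against -0.51 for all genes. Centred ratios gave 2 higher and 10 lower, against 8.91% and 18.3% of all genes. With the trend over transcript length removed, the counts were 3 higher and 0 lower, against 9.81% and 7.56% of all genes, and the median was -0.20.

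EFNA3, a lipid-anchored ligand of A-type receptors, reached 11.2 FPKM in the Ovol2 library, against 2.45 in the empty vector library, 4.59 times as much (log2 ratio 1.83). EPHA1 reached 18.8 FPKM, against 6.04, 3.11 times as much (1.49). Both passed the rule under all 9 alternative settings, between 1.62 and 2.20 for EFNA3 and between 1.28 and 2.26 for EPHA1. The settings that change only the minimum or the added value could not have undone these calls. EFNA1 was 3.68 times EFNA3 in the Ovol2 library, and 19.1 times in the Zeb1 and 20.3 times in the Snail library, against 22.1 times in the empty vector library. EPHA1 was the only member called in opposite directions in the Zeb1 and Ovol2 libraries with Zeb1 on the lower side. SEMA3C and NRP1 were called higher with Zeb1 and lower with Ovol2. With the length trend removed they stood at 2.01 and 2.25 with Zeb1, but at -0.53 and -0.15 with Ovol2, short of 2-fold. NRP1, at 0.451 FPKM with Ovol2, was kept in that comparison only through the empty vector library. SEMA3B (0.58) and SEMA4A (0.36) were above the empty vector library with Ovol2 without reaching 2-fold, and with the length trend removed SEMA3B came to 1.06 and SEMA4A to 0.85.

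The lowest log2 ratios with Ovol2 were those of PLXNB1 (-1.84), EPHB2 (-1.78), PLXNA1 (-1.70), EPHB4 (-1.51) and EFNA5 (-1.47). All 6 plexins kept were below the empty vector library, with a median of -1.29, which was -0.29 after removal of the length trend, where PLXNA2 (0.08) and PLXNB3 (0.41) were above 0. EPHA2 (-0.09) and EFNA4 (-0.09) had the ratios closest to 0, and the ligand EFNA1 was at -0.38. Several genes near the filter showed larger plain ratios than the rule conveys. EPHA3 was 10.2 times, SEMA4F 6.07 times, NRP1 4.43 times and NRP2 4.26 times as high in the empty vector as in the Ovol2 library. These genes were below 1 FPKM with Ovol2 and were kept only through the empty vector library, which favours such ratios. With the length trend removed, their log2 ratios of FPKM + 1 were -0.24, -0.20, -0.15 and -0.11. SEMA6D, not kept in this comparison, was at 0.171 FPKM in the Ovol2 library, against 0.989.

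Transcript length moved with the ratios of all genes in the Ovol2 library. Spearman's rho between the longest annotated transcript and the log2 ratio was -0.474 across 11211 genes, which share 2 libraries and are not independent replicates. The median log2 ratio was 0.26 in the shortest and -1.07 in the longest 10% of genes. In the Zeb1 (rho 0.310) and Snail (0.282) libraries the trend ran the other way and was weaker. The members are long, with a median of 5026.5 bases among the 30 kept with Ovol2, against 3488 bases for all genes. Plexins at 1 FPKM or more ran from 6377 to 11444 bases, and ephrins from 1263 to 5335 bases. A running median over genes ranked by length was subtracted to remove the trend. Where the added value was 0.1 in place of 1 FPKM, an alternative chosen after seeing the data, removal of the trend left 4 higher and 4 lower, against 13.5% and 13.4% of all genes. The lower ones were then EPHA3 (-1.57), SEMA4F (-1.09), SEMA4C (-1.02) and EFNA5 (-1.01), and the higher ones EPHA1, EFNA3, SEMA3B and SEMA4A. Whether the length trend arose in the cells or in the libraries was not tested.

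**Figure D3:**
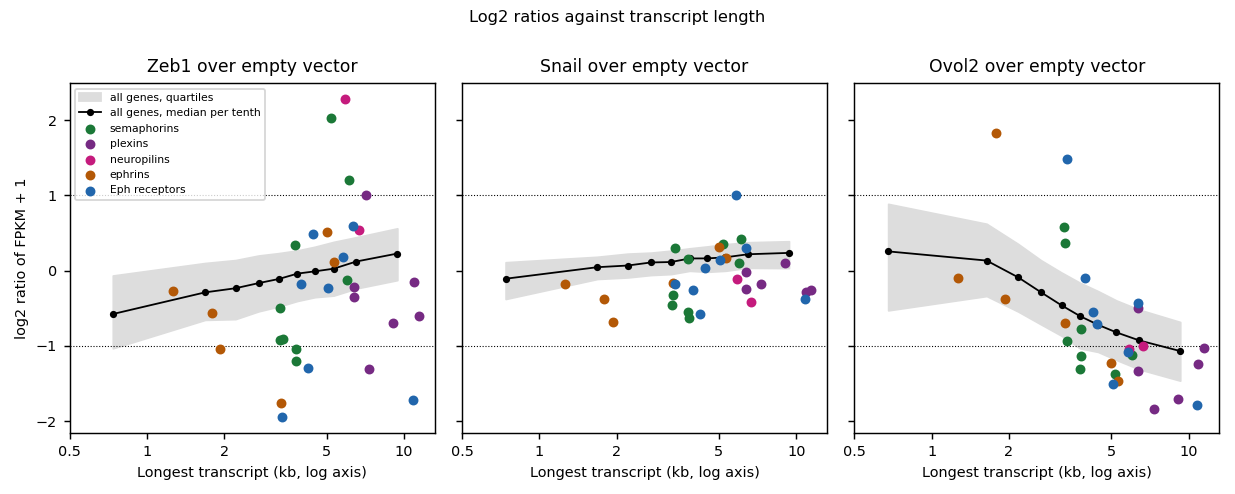
Log2 ratio of FPKM + 1 over the empty vector library (vertical axis) against the longest annotated transcript in kilobases (horizontal log axis) for the kept members, with the median (black line) and quartiles (grey band) of all genes in 10 length groups of equal size. In the Ovol2 panel the line runs from 0.26 in the shortest to -1.07 in the longest group and EFNA3 (1.83) and EPHA1 (1.49) stand above the upper dotted line at 2-fold.

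**Figure D4:**
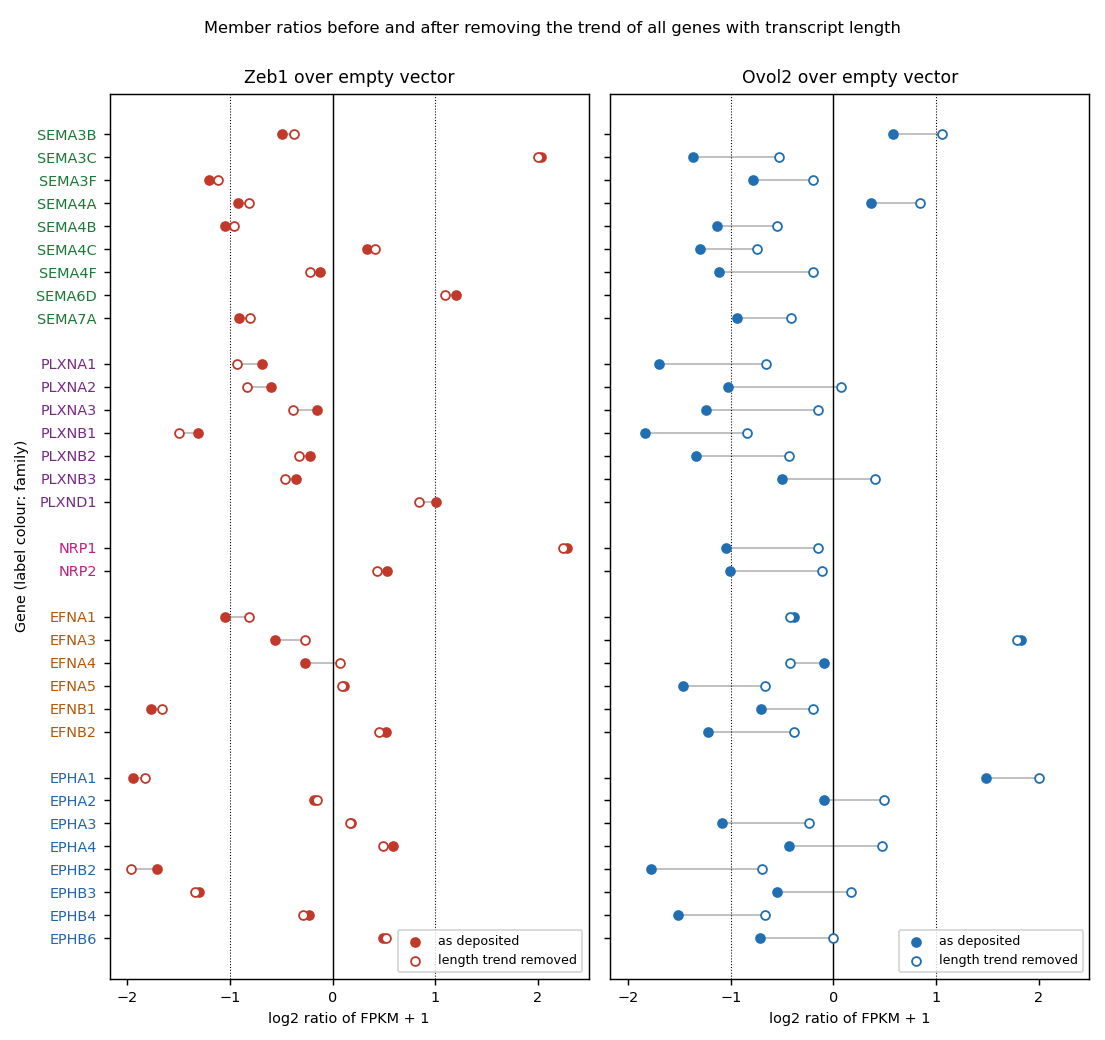
Log2 ratio of FPKM + 1 of each kept member in the Zeb1 and Ovol2 libraries over the empty vector library (horizontal axis), as deposited (filled) and after the trend of all genes with transcript length was subtracted (open), with dotted lines at 2-fold. In the Ovol2 panel all 16 members past the line on the lower side move inside it, and EPHA1 moves further out, while in the Zeb1 panel EFNA1, SEMA4B and PLXND1 are the members that move inside.

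Genes that carry these signals inside the cell were looked up as 3 lists chosen with earlier results of these data known. Of 32 partners of semaphorin receptors, 20 were kept with Zeb1, of which 2 were higher and 1 lower, against 4.52% and 8.49% of all genes. After removal of the length trend 5 were higher and 0 lower, against 5.76% and 5.78%. DPYSL2, a collapsin response mediator that passes semaphorin signals to microtubules, was at 36.1 FPKM in the Zeb1 library, against 13.3 in the empty vector library (1.38). ITGA1, a chain of the integrin that SEMA7A binds, was at 35.2 FPKM, against 10.1 (1.70). RND3, a GTPase that acts against contraction, was at 27.7 FPKM, against 61.6 (-1.13). With Snail, ITGA1 at 48.9 FPKM (2.17) was the only call in this list among 19 kept. Of all genes, 1% were higher and 1.5% lower with Snail.

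In the Ovol2 library 13 of 20 kept members of the same list were lower and 1 higher, against 25.1% and 6.82% of all genes. After removal of the length trend 9 were lower and 3 higher, against 7.56% and 9.81%. MET, the receptor kinase that pairs with B plexins, was at 2.67 FPKM, against 37.1 (-3.38), and stood at -2.47 with the trend removed. ITGA1 was at 0.381 FPKM, against 10.1 (-3.01). DPYSL2 was at 0.935 FPKM, against 13.3 (-2.88). The integrin chain ITGB1 (-2.36), the GTPase RRAS (-2.12), on which plexins act directly, and the actin oxidase MICAL2 (-1.93) followed. ITGA1 and DPYSL2 were among the 5 of the 20 that were kept only through the empty vector library. GIPC1, which binds the tail of NRP1, was at 186 FPKM, against 69.0 (1.42).

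Of 22 partners of Eph receptors, 19 were kept in each comparison. TNS3, a focal adhesion protein, was higher with Zeb1 at 64.5 FPKM, against 20.8 (1.59), and ARHGEF16 (-1.51), an exchange factor, and GRB7 (-1.39), an adaptor, were lower. These counts of 1 and 2 of 19 stand against 4.52% and 8.49% of all genes. ARHGEF16 and GRB7, at 0.371 and 0.909 FPKM with Zeb1 against 2.91 and 4.01, were kept there only through the empty vector library. With Snail 0 of the 19 were called, against 1% of all genes higher and 1.5% lower. ARHGEF16 (-1.08) and GRB7 (-1.11) passed on the lower side when ratios were centred, against 2.16% of all genes. In the Ovol2 library 11 were lower and 1 higher, against 25.1% and 6.82% of all genes, and 5 and 1 after removal of the length trend, against 7.56% and 9.81%. The largest negative ratios were those of TNS3 (-3.19), the exchange factor VAV2 (-2.82), the adaptor GRB10 (-2.31), the phosphatase PTPN11 (-1.95), the lipid phosphatase INPPL1 (-1.80) and ADAM10 (-1.67), a protease that sheds ephrins. GRB10, at 0.367 FPKM with Ovol2 against 5.78, was kept only through the empty vector library. GRB7 was at 13.0 FPKM in the Ovol2 library, against 4.01 (1.48), and so went opposite ways in the Zeb1 and Ovol2 libraries, as EPHA1 did.

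Other guidance cues and receptors, the SLIT, ROBO, netrin and RGM genes with their receptors, were mostly low, and 5 of 21 were kept in each comparison. NTN4, a netrin of basement membranes, was at 76.9 FPKM with Zeb1, 16.6 with Snail and 6.60 with Ovol2, against 13.6 in the empty vector library (2.42 with Zeb1). UNC5B, a netrin receptor, was at 1.79, 3.81 and 7.20 FPKM, against 5.73 (-1.27 with Zeb1). With Zeb1, 1 of the 5 was thus higher and 1 lower, against 4.52% and 8.49% of all genes. ROBO1 (-1.27), NEO1 (-1.11) and RGMB (-1.10) were lower in the Ovol2 library. These were 3 of 5 kept, with 0 higher, against 25.1% lower and 6.82% higher among all genes. NEO1 and RGMB, at 0.236 and 0.507 FPKM with Ovol2 against 1.67 and 2.23, were kept only through the empty vector library, which favours such ratios. After removal of the length trend 0 of the 5 were lower and 1 was higher, against 7.56% and 9.81%. With Snail 0 of the 5 were called, against 1% of all genes higher and 1.5% lower.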

How the data were processed

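The authors deposited 3 tables, each with expression values of the empty vector library beside 1 factor library, in 25360 rows. No header names the unit. The deposited values were taken as FPKM because Cufflinks and Cuffdiff, which report it, stand with TopHat and hg19 in the submitters' processing notes, and because column totals differ and values are not whole numbers. Tool versions, annotation and strand setting are not given in the sources used here. Across the 3 tables the empty vector column was identical. Rows that repeat a symbol (43) were summed. The authors' own comparison columns, made from 1 value a side, were not used.

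Log2 ratios of FPKM + 1 were computed for all genes that reached 1 FPKM in one or other library (Python 3.11.15, pandas 2.3.3). No test is possible with 1 library a group. Fragment totals are unknown, so only a rough proxy of depth relative to the empty vector library is given, and no counting interval. Lengths are the longest GENCODE 29 transcript of each symbol and were found for 94.7% to 94.9% of kept genes. The steps were tested on simulated data. Members and lists were chosen with earlier results of these data known. All members at 1 FPKM were named, and up to 6 partners per direction. In all, 9 alternatives were tried, 8 of them planned.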

Additional observations from a re-analysis of the deposited data

How the results depend on the processing

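Without replicates no library could be left out, and no paired analysis was possible because each group holds 1 library and the labels give no replicate numbers. With Zeb1 (4 members higher, 8 lower of 32 kept), a minimum of 5 FPKM left 2 higher of 20 kept, against 5.11% of all genes. That minimum removed genes with low levels. Leaving RMRP and RPPH1 out of the totals left 5 lower of 32 kept, against 5.07% of all genes. With Snail (1 higher, 0 lower), 0 were higher with a minimum of 5 FPKM, centring, upper quartile scaling, totals without RMRP and RPPH1, or the length trend removed. In these settings 0.67% to 1.1% of all genes were higher. Under any alternative 0 members were lower, against 0.69% to 3.47% of all genes. With Ovol2 (2 higher, 16 lower of 30 kept), a minimum of 5 FPKM left 10 lower of 18 kept, against 27.4% of all genes. The number lower was 10 with centring (18.3% of all genes) and 9 with upper quartile scaling (15.7%). It was 0 with the length trend removed (7.56%) and 4 with that trend removed and an added value of 0.1 FPKM (13.4%). The last setting also gave 4 higher (13.5%). PLXNA2 changed sign when the length trend was removed (0.0777). The cause of these shifts was not tested beyond the steps themselves. The scalings moved the median log2 ratio of all genes by 0.10 to 0.27 with Zeb1, by -0.14 to -0.04 with Snail and by -0.16 to 0.28 with Ovol2, and removal of the length trend moved it by 0.51 with Ovol2. Of the calls, 3 of 4 higher and 5 of 8 lower with Zeb1, 0 of 1 with Snail, and 2 of 2 higher and 0 of 16 lower with Ovol2 held under every alternative that kept the gene. Alternatives that change only the minimum or the added value could not undo the call of a kept gene.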

Other observations

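Members below 1 FPKM in every library took no part in the counts. EPHA5, a receptor of the nervous system, was at 0.322 FPKM with Zeb1, 0.128 with Snail and 0.0156 with Ovol2, against 0.0387 in the empty vector library. PLXNC1, the plexin that binds SEMA7A, was at 0.154, 0.212 and 0.0324 FPKM, against 0.229. SEMA5A, a ligand of PLXNB3, was at 0.199, 0.157 and 0.224 FPKM, against 0.0752. SEMA6C was at 0.940, 0.508 and 0.322 FPKM, against 0.507. SEMA3E, the ligand that binds PLXND1 without a neuropilin, was at 0.0173, 0.0610 and 0.0586 FPKM, against 0.0598.

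The antisense transcripts left out of the group were also low. EPHA5-AS1 was at 0.116, 0.182 and 0.0165 FPKM in the Zeb1, Snail and Ovol2 libraries and stood at 0 in the table for the empty vector. SEMA6A-AS1 was at 0.253, 0.289 and 0.0616 FPKM, against 0.184. EPHA1-AS1 was at most 0.0459 FPKM.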
